A study of Mus musculus with 37 samples.

Results

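The 4 chemokine genes Ccl22, Ccl17, Cx3cl1 and Cxcl16 were followed across 5 myeloid cell types of C57Bl6cJ mice that had been left untreated or exposed to interleukin-10 (IL-10), lipopolysaccharide (LPS) or both. They were taken by gene name from the RNA-seq table, which gave 6 transcripts of these 4 genes among 16993 named transcripts of 6509 genes. The cells were thioglycollate-elicited peritoneal macrophages that adhered to plastic, neutrophils isolated from the bone marrow of pooled mice and all kept overnight with GM-CSF, splenic dendritic cells (sDCs) enriched magnetically, and 2 cell types grown from bone marrow in culture, mast cells and eosinophils. IL-10 was given at 100 ng/ml for 4 h and LPS, a cell wall component of Gram-negative bacteria, at 100 ng/ml for a further 4 h. Macrophages, neutrophils, sDCs and mast cells had 4 groups each (untreated, IL-10, LPS, IL-10 plus LPS), and eosinophils had an untreated and an LPS group, which makes 18 groups. In the study's scheme the groups without LPS were collected 4 h before the groups with LPS, so that LPS and longer culture cannot be told apart. One library of the untreated and one of the IL-10 macrophages was labelled as a re-analysis of an earlier sample.

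Each group had 2 libraries, but the table holds only their mean, so no value below has a standard deviation and no difference could be tested or set against the spread between replicates. The values, called levels here, are normalised read counts as the authors scaled them, summed over the transcripts of a gene. A gene was called raised or lowered, and the words rose and fell are used, where log2(level + 1) differed by at least 2-fold and one of the levels was at least 10. The same 18 columns summed to between 10207959.5 and 11499748 over all rows. The depth of the libraries cannot be read from these means. The table covers only a part of the genes: it held 7 chemokine ligand genes, for example, and 5 of 14 macrophage markers looked up. Every rank and every share of all genes below is over the held genes only.

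CCL22 and CCL17 are secreted chemokines that both bind CCR4, a receptor of T helper 2, regulatory and skin-homing T cells, and activated dendritic cells are a known source of them. CX3CL1 and CXCL16 are unusual among chemokines in being made as transmembrane proteins, with the chemokine domain held on a mucin-like stalk. They can tether cells that carry CX3CR1 or CXCR6, and they are released as soluble chemoattractants when ADAM10 or ADAM17 cuts the stalk. CXCL16 is also a scavenger receptor for oxidised lipoprotein.

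Ccl22, Cx3cl1 and Ccl17 lie side by side on the forward strand of chromosome 8 and Cxcl16 lies alone on chromosome 11. On NCBIM37 the genes were annotated at chr8:97269490-97275599 for Ccl22, chr8:97295909-97306323 for Cx3cl1, chr8:97334353-97335935 for Ccl17, and chr11:70267485-70273486 on the reverse strand for Cxcl16. The gap from Ccl22 to Cx3cl1 was 20.3 kb and that from Cx3cl1 to Ccl17 was 28.0 kb, and the whole cluster spanned 66.4 kb. The table held 1 of 2 annotated transcripts of Ccl22, 1 of 4 of Cx3cl1, the 1 of Ccl17 and all 3 of Cxcl16. The held transcripts of the cluster were protein coding with 3 exons each.

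The 250 bases before the start of the 3 cluster genes, from RefSeq on GRCm38.p6, are shown because these neighbours were compared with each other throughout. Capitals mark letters that matched a searched motif. The Ccl22 sequence is chr8:94745434-94745683, the Cx3cl1 sequence chr8:94771930-94772179 and the Ccl17 sequence chr8:94810203-94810452, all on the forward strand.
Ccl22: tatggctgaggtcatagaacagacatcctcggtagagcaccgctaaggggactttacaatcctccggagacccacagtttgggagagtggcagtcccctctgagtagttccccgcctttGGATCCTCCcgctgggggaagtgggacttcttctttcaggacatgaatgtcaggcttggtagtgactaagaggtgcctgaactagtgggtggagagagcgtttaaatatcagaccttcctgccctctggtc
Cx3cl1: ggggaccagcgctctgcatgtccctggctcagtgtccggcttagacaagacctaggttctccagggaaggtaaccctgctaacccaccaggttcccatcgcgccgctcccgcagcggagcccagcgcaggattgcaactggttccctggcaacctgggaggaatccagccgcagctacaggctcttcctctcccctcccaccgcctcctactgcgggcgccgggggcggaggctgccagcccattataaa
Ccl17: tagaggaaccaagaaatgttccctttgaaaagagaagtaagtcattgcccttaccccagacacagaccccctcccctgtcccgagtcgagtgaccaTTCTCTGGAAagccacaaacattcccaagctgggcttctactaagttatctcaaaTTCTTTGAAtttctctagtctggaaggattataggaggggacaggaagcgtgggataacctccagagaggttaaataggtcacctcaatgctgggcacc
An NF-kB-like pattern (GG, a purine, 2 free bases, 2 pyrimidines, CC) matched once before Ccl22, as GGATCCTCC from 131 to 123 bases before the start, and this pattern occurred in 23.0% of 32851 promoter windows of the same length. Paired STAT half-sites matched before Ccl17 only among these 3, as TTCTTTGAA (TTCNNNGAA, 7.02% of windows) from 99 to 91 bases and as TTCTCTGGAA (TTCNNNNGAA, 5.85% of windows) from 154 to 145 bases before the start. Neither these patterns nor GAAANNGAAA, found in 2.98% of windows, matched before Cx3cl1. Both strands were searched, and a match describes letters and not a bound site. The Cx3cl1 window was the richest in CpG pairs of the 3, with 14 against 6 for Ccl22 and 3 for Ccl17, and the median over all windows was 6. Its GC content was 64.8%, against 53.6% for Ccl22, 47.6% for Ccl17 and a median of 52.4%.

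In untreated cells, Ccl22, Cx3cl1 and Cxcl16 had their highest level in sDCs and Ccl17 had its highest level in neutrophils. Ccl22 stood at 6040 in sDCs, 491 in neutrophils, 175.5 in macrophages and 26 in eosinophils, and was listed at 0 in mast cells. Ccl17 stood at 999 in neutrophils and 206 in eosinophils, and at 16 in sDCs, 7.5 in mast cells and 6.5 in macrophages. Cx3cl1 was at 1121 in sDCs and at 49.5 or lower in the other cell types. Cxcl16 was at 25019 in sDCs and 4787 in macrophages, then 202.5 in mast cells, 96 in neutrophils and 12 in eosinophils. Untreated sDCs already had Ccr7, a marker of activated dendritic cells, at 185338. Whether neighbours in these orders differ beyond the spread of replicates cannot be said from means.

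**Figure D1:**
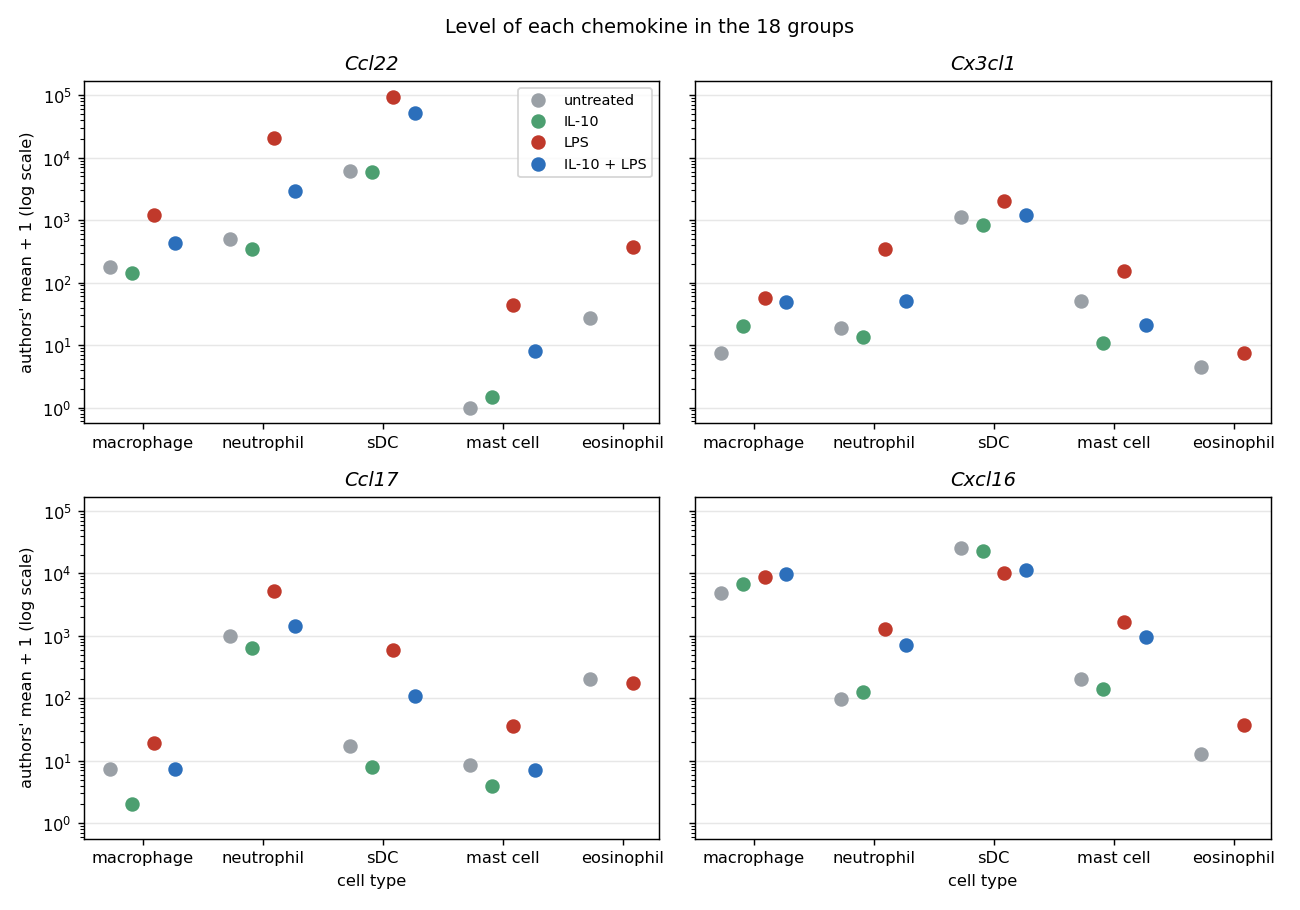
Level of each of the 4 chemokine genes (vertical axis, the authors' mean plus 1 on a log scale) in the 18 groups, by cell type on the horizontal axis and by treatment in colour; each point is 1 mean of 2 libraries and no error can be drawn. Ccl22 with LPS stands far above the untreated point in all 5 cell types, while Cxcl16 in sDCs falls from 25019 to 10197.5.

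Per kb of transcript, the balance between the CCR4 ligands differed between cell types. Untreated sDCs had 87.4 times as much Ccl22 as Ccl17 per kb, and untreated macrophages 6.25 times as much. The Ccl17 level was 16 in these sDCs and 6.5, under the minimum, in these macrophages, so the size of both ratios is uncertain. In untreated neutrophils and eosinophils Ccl17 was the higher, with ratios of Ccl22 to Ccl17 of 0.114 and 0.0292. With LPS the ratio came to 0.92 in neutrophils and 0.5 in eosinophils, and it went to 36.8 in sDCs, where both genes rose. Of the transmembrane pair, Cxcl16 was above Cx3cl1 per kb in all 18 groups, but in untreated macrophages and eosinophils, where the ratio was highest and lowest (1250 and 5.26), the Cx3cl1 level was only 6.5 and 3.5, under the minimum, and the size of these ratios is uncertain.

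LPS raised 15 of the 20 combinations of gene and cell type and lowered 1. In macrophages 3 of the 4 genes rose, where 12.6% of 6005 genes did. In neutrophils and mast cells all 4 rose, against 8.71% and 4.71% of genes. In sDCs 2 rose, against 8.98% of genes, and 1 fell, against 11.5%. In eosinophils 2 rose, against 2.16% of genes. The median log2 change of all genes was -0.15 in macrophages and -0.14 in sDCs and lay closer to 0 in the other cell types.

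Ccl22 rose in every cell type. Its level went from 175.5 to 1212 in macrophages, 6.91-fold, and from 491 to 20912.5 in neutrophils, 42.6-fold. In sDCs it went from 6040 to 95000, 15.7-fold, which made Ccl22 the gene with the 9th highest level of the 6509 held. Eosinophils went from 26 to 376, 14.5-fold, and mast cells from a listing of 0 to 43.5, a call that was lost with a minimum of 50. By the size of the rise, Ccl22 ranked 27 of 5910 genes in neutrophils, 13 of 5559 in eosinophils, 63 of 5990 in sDCs and 185 of 6005 in macrophages.

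Ccl17, the other CCR4 ligand, rose in 4 cell types and not in eosinophils. It went from 16 to 597 in sDCs, 37.3-fold, which ranked 33 of 5990 genes. Neutrophils, with the highest level before LPS, went from 999 to 5261, 5.27-fold. The levels were lower in mast cells (7.5 to 34.5) and macrophages (6.5 to 18), and these rises rest on small values. Eosinophils had 206 without and 174 with LPS.

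Cx3cl1 rose in macrophages, neutrophils and mast cells. It went from 18 to 349 in neutrophils, 19.4-fold, from 6.5 to 56 in macrophages, 8.62-fold, and from 49.5 to 150 in mast cells, 3.03-fold. In sDCs, which had the highest level of this gene with and without LPS, the change from 1121 to 2047.5 was 1.83-fold and was not called. In eosinophils the gene was at 3.5 and 6.5, under the minimum.

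Cxcl16 moved in opposite directions. It rose from 96 to 1271 in neutrophils, 13.2-fold, from 202.5 to 1680.5 in mast cells, 8.3-fold, and from 12 to 36 in eosinophils, 3.0-fold. In macrophages it went from 4787 to 8714.5, a log2 difference of 0.86 that was not called, although it reached 1.02 when the columns were rescaled by median ratios. In sDCs it fell from 25019 to 10197.5, by 1.29 on the log2 scale, in the same cells in which Ccl22 and Ccl17 rose. This difference in direction between cell types was not tested.

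**Figure D2:**
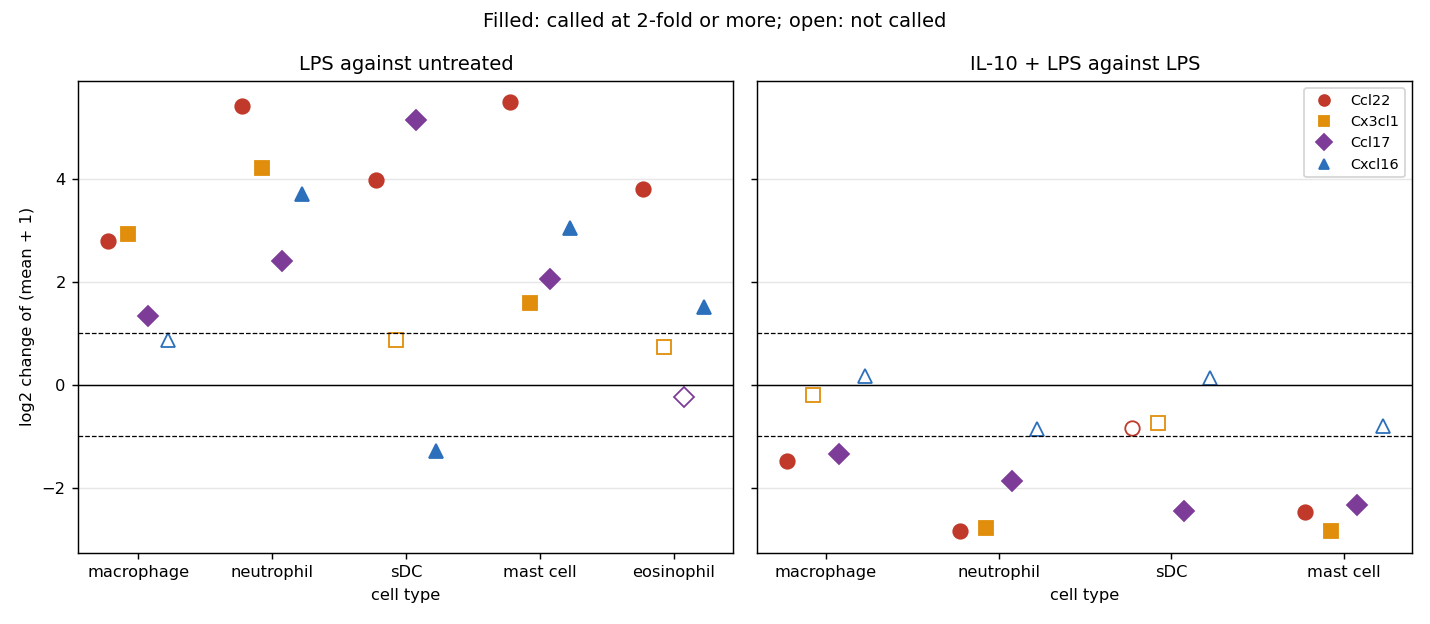
Log2 change of level plus 1 (vertical axis) for LPS against untreated (left) and IL-10 plus LPS against LPS (right), by cell type; filled symbols were called at 2-fold or more and dashed lines mark 2-fold. On the right, 9 of the 12 chromosome 8 symbols lie below the lower line and no Cxcl16 symbol does.

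IL-10 given before LPS lowered 9 of the 16 combinations of gene and cell type, all of them genes of the chromosome 8 cluster. This split depends on the 2-fold limit: at 1.5-fold 13 were lowered, and 2 of the 4 added were Cxcl16, in neutrophils and mast cells. The LPS libraries are the same as those in the comparison above, so the 2 sets of values share them. In macrophages 2 of 4 genes fell, against 4.3% of all genes, and in neutrophils 3 fell, against 3.71%. In sDCs 1 fell, against 2.0%, and in mast cells 3 fell, against 4.55%. Among genes that LPS had raised, the share that fell with IL-10 was 31.7% in mast cells, 29.9% in neutrophils, 18.3% in macrophages and 12.3% in sDCs. Of the members raised by LPS, 3 of 4, 3 of 4, 2 of 3 and 1 of 2 fell in these cell types, in the same order.

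Ccl17 fell in all 4 cell types, but in macrophages and mast cells the levels were small and the calls were lost with a minimum of 50, and in macrophages also with a pseudocount of 10. Its level with LPS and with IL-10 plus LPS was 597 and 108.5 in sDCs, 5261 and 1428 in neutrophils, 34.5 and 6 in mast cells, and 18 and 6.5 in macrophages. In sDCs its log2 change of -2.45 ranked 6 from the bottom of 5946 genes. Ccl22 fell in macrophages (1212 to 431.5), neutrophils (20912.5 to 2897) and mast cells (43.5 to 7), and the mast cell call was lost with a minimum of 50. In sDCs Ccl22 went from 95000 to 52804, a log2 change of -0.85 that was not called. In sDCs, then, the 2 ligands of CCR4 differed by 5.5-fold and 1.8-fold between the same groups, and the ratio of Ccl22 to Ccl17 per kb was 36.8 with LPS and 113 with IL-10 plus LPS.

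Cx3cl1 fell from 349 to 49.5 in neutrophils and from 150 to 20 in mast cells, 7.05-fold and 7.5-fold. These changes ranked 16 from the bottom of 5879 genes and 13 from the bottom of 5647. In macrophages it was 56 with LPS and 48.5 with IL-10 plus LPS, and in sDCs 2047.5 and 1222.5, neither of which was called. Cxcl16 was not called in any cell type, with log2 changes near 0 in macrophages (0.17) and sDCs (0.12) and below 0 in neutrophils (-0.86) and mast cells (-0.80).

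Set against the untreated level, the part of the LPS rise that was present with IL-10 was 11.8% for Ccl22, 9.52% for Cx3cl1 and 10.1% for Ccl17 in neutrophils, and 51.6% for Cxcl16. In mast cells it was 16.1% for Ccl22 and again 51.6% for Cxcl16, while Cx3cl1 and Ccl17 lay below their untreated levels. In macrophages it was 24.7% for Ccl22, 0% for Ccl17 and 84.8% for Cx3cl1. In sDCs it was 52.6% for Ccl22 and 15.9% for Ccl17. Among the neighbours on chromosome 8 these parts ranged from 0% to 84.8% in macrophages and from 9.52% to 11.8% in neutrophils. Both ends of the macrophage range rest on small levels. Ccl17 and Cx3cl1 were each at 6.5 in untreated macrophages, under the minimum, and at 18 and 56 with LPS. In mast cells Ccl22 and Ccl17 stayed under 50, so the size of their parts is uncertain too.

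IL-10 alone changed 3 of the 16 combinations. In macrophages Cx3cl1 rose from 6.5 to 19, and 2.02% of genes rose and 1.84% fell there. In sDCs Ccl17 fell from 16 to 7, where 0.723% of genes fell. In mast cells Cx3cl1 fell from 49.5 to 10, 4.95-fold, which ranked 5 from the bottom of 5662 genes, of which 2.67% fell. In neutrophils none of the 4 was called and 0.652% of genes fell; Ccl17 went from 999 to 635 and Ccl22 from 491 to 343.5. Cxcl16 differed by 0.52 or less on the log2 scale, in either direction, in all 4 cell types.

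The 3 Cxcl16 transcripts kept a similar balance across the study. In the 16 groups with a Cxcl16 level of at least 50, the protein-coding transcript ENSMUST00000019064 made up 61.5% to 80.2% of the level. ENSMUST00000126391, annotated as a target of nonsense-mediated decay, made up 17.7% to 33.8%, and the retained-intron transcript ENSMUST00000154475 up to 10.1%. The protein-coding transcript itself went from 18547 to 6734.5 with LPS in sDCs and from 77 to 849.5 in neutrophils, the same directions as the gene. With IL-10 plus LPS against LPS in neutrophils, where the gene was not called, ENSMUST00000126391 fell from 351.5 to 171.5 and ENSMUST00000154475 from 70 to 14, while the protein-coding transcript was at 849.5 and 516.5, a log2 change of -0.72. Calls are more common over transcripts than over genes: 9.74% of 14398 transcripts fell in this comparison, against 3.71% of genes.

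Over the 18 groups, log2 levels of Ccl22 correlated with those of Cx3cl1 at r = 0.71 and with Ccl17 at r = 0.51, and Cx3cl1 with Ccl17 at r = 0.14. Cxcl16 correlated at r = 0.71 with Cx3cl1, 0.55 with Ccl22 and -0.35 with Ccl17. After the mean of each cell type was taken off, the values within the cluster were 0.78, 0.78 and 0.63, and those of Cxcl16 were 0.70 with Cx3cl1, 0.69 with Ccl22 and 0.23 with Ccl17. These are descriptions over groups that share cell type, libraries and normalisation.

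By the same measure over 6508 other genes, the pattern most like that of Cxcl16 was Zmynd15, at r = 0.98, followed by Pdgfb at 0.95 and Cd200 at 0.94. For Ccl22 the closest included Pla1a, Cd80 and Amn1, all at 0.94. For Cx3cl1 it was Rel at 0.95, and for Ccl17 Stfa2l1 and Med31, both at 0.91. With cell type means taken off, the closest were Tpbg for Ccl22 (0.96), Trim34a for Cx3cl1 (0.90), Ppfia3 for Ccl17 (0.94) and again Zmynd15 for Cxcl16 (0.96).

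Zmynd15 is the neighbour of Cxcl16 on the opposite strand, and their first exons overlap. Its level went with LPS from 465.5 to 1619 in macrophages, from 4 to 69.5 in neutrophils and from 60.5 to 387.5 in mast cells, and from 5961 to 2272 in sDCs. It thus rose or fell with LPS in the same direction as Cxcl16 in neutrophils, mast cells and sDCs. The sources used here do not give whether counting used the strand, and without it, reads of the shared bases cannot be told apart. The 3 protein-coding transcripts of Zmynd15 shared 363, 552 and 363 exon bases with Cxcl16. The retained-intron transcript ENSMUST00000136029, at chr11:70273698-70279701, shared 0 exon bases with Cxcl16 and correlated with it at r = 0.95, and at 0.93 with cell type means taken off. The protein-coding transcripts correlated at 0.91 (ENSMUST00000039093), 0.96 (ENSMUST00000108563) and 0.84 (ENSMUST00000108564), and with cell type means taken off at 0.68, 0.92 and -0.14, so that not every transcript followed Cxcl16. The retained-intron transcript ENSMUST00000136029 went with LPS from 45.5 to 297.5 in mast cells and from 3080 to 1094 in sDCs. How reads were divided among the Zmynd15 transcripts was not tested.

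**Figure D3:**
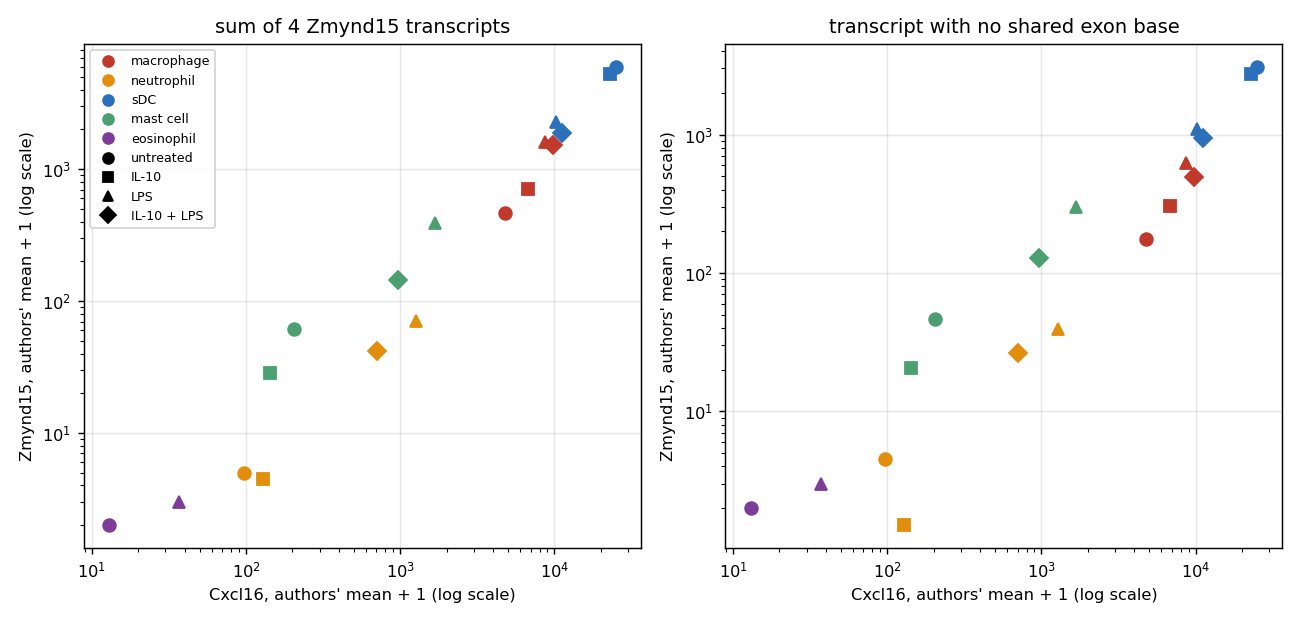
Level plus 1 of Zmynd15 (vertical axis) against Cxcl16 (horizontal axis), both on log scales, in the 18 groups; left, the sum of the Zmynd15 transcripts, and right, the transcript that shares no exon base with Cxcl16. Colour gives the cell type and shape the treatment, and the points lie near 1 line on the left, r = 0.98, and on the right, r = 0.95.

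Of 12 other genes held within 250 kb of the chromosome 8 cluster, 10 to 12 reached the minimum in each cell type. With LPS none of them rose in macrophages, neutrophils, sDCs or eosinophils and 1 of 10 rose in mast cells, while between 2.16% and 12.6% of all genes rose across the cell types, a share that 0 or 1 of so few genes is near. The 1 that rose was Gpr56, an adhesion receptor gene, which went from 5021 to 41233.5 and was at 19595.5 with IL-10 plus LPS. Falls were called for 3 of 11 in macrophages (Coq9, Gpr56 and Gpr97), 2 of 12 in sDCs and 1 of 12 in neutrophils, against 14.7%, 11.5% and 7.83% of all genes. Counts of so few genes cannot be set apart from these shares. Ccdc102a was among those that fell in sDCs, from 336 to 94. Around Cxcl16, 22 other genes were held, and Zmynd15 was the 1 gene that rose among the 20 or 21 that reached the minimum in macrophages, neutrophils and mast cells. In sDCs 4 of 20 fell (Zmynd15, Tm4sf5, Slc16a13 and Eno3) and 1, Alox15, rose, against 11.5% and 8.98% of all genes.

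**Figure D4:**
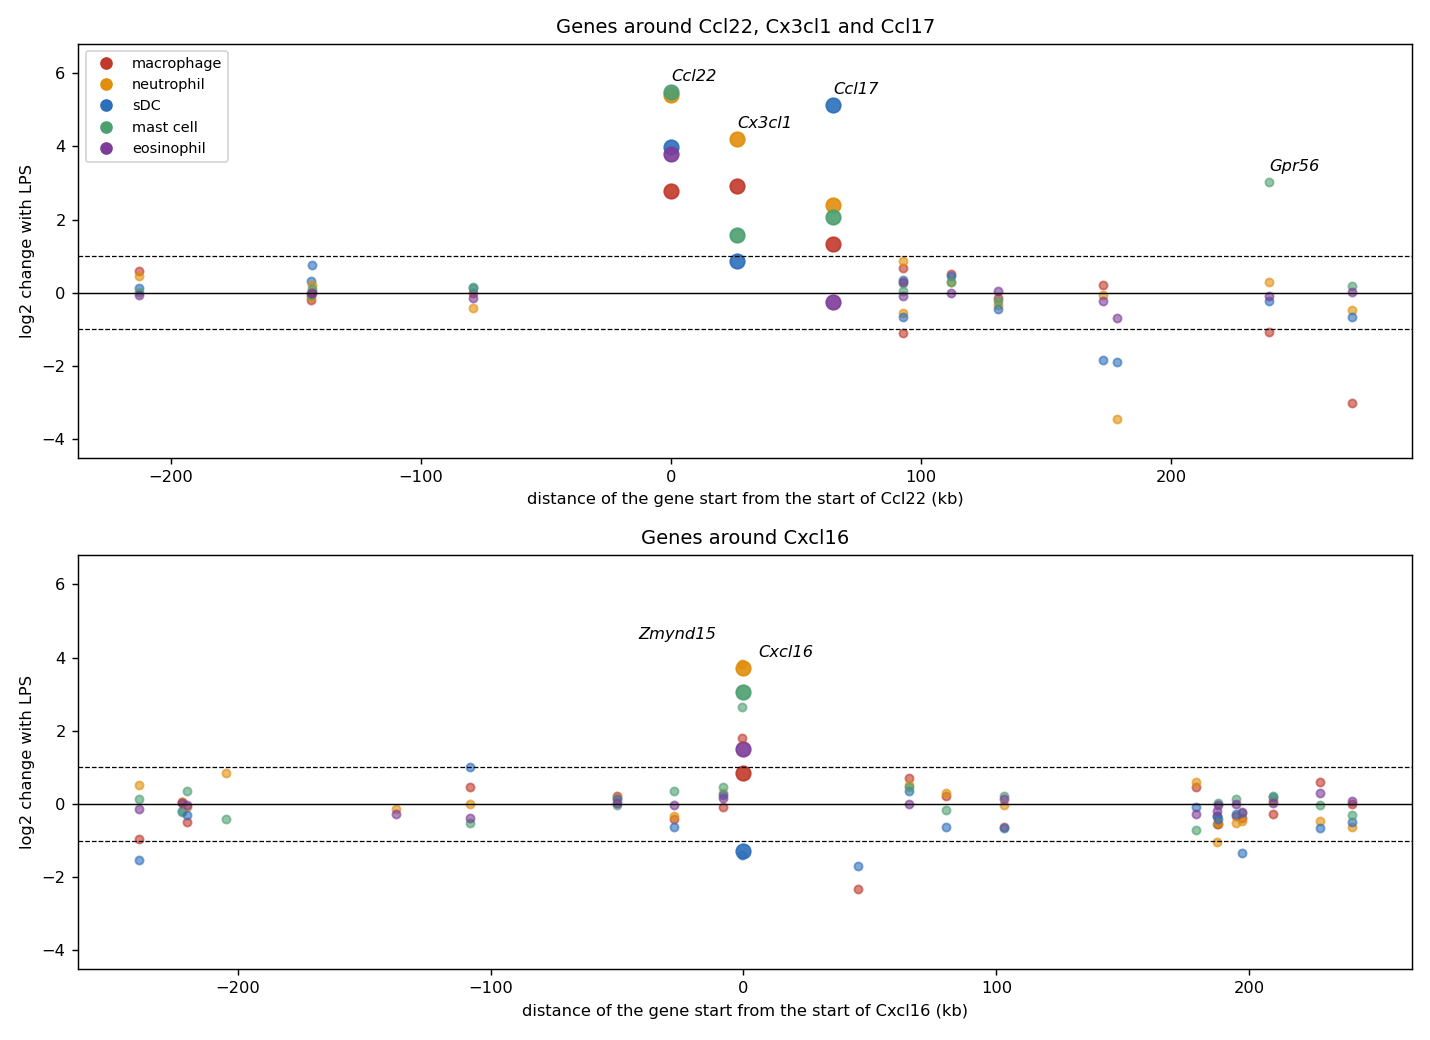
Log2 change with LPS (vertical axis) of the held genes around the chromosome 8 cluster (top) and around Cxcl16 (bottom), against the distance in kb of the gene start from that of Ccl22 or Cxcl16; colours are cell types, large points the 4 chemokine genes, and dashed lines mark 2-fold. Between the flanking genes, which mostly lie between the dashed lines, Ccl22, Cx3cl1 and Ccl17 stand above the upper line in most cell types.

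Of 16 genes for receptors, shedding enzymes and their inhibitors that were looked up, 7 were held. With LPS, 2 of the 6 that reached the minimum rose in macrophages and 2 fell, against 12.6% and 14.7% of all genes. Of 6 in sDCs, 1 rose and 3 fell, against 8.98% and 11.5%. Of 6 in neutrophils 1 rose, of 4 in mast cells none was called, and of 3 in eosinophils 2 rose, against 8.71%, 4.71% and 2.16% of genes that rose. In mast cells 5.41% of genes fell. Cx3cr1, the CX3CL1 receptor, fell from 589 to 79 in macrophages and from 997 to 255 in sDCs. It rose from 5 to 33.5 in eosinophils and was not called in neutrophils or mast cells. Adam10, which sheds CX3CL1 and CXCL16, fell from 9606 to 3551 in macrophages and from 4864.5 to 2071.5 in sDCs. Dpp4, a peptidase that trims CCL22, fell from 15226 to 3679 in sDCs. Cxcr6, the CXCL16 receptor, was between 801 and 951 in the sDC groups and at 19.5 or lower elsewhere. Timp1, an inhibitor of metalloproteinases, was higher with IL-10 plus LPS than with LPS in all 4 cell types, from 13.5 to 344 in mast cells for example.

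Of 17 listed regulators of these genes, 12 were held. With LPS, 7 of 12 rose in macrophages, against 12.6% of all genes, with a median log2 change of 1.73 beside -0.15 for all genes. In neutrophils 6 rose and 1 fell, against 8.71% and 7.83% of genes, and in sDCs 4 rose and 3 fell, against 8.98% and 11.5%. In mast cells 5 rose, against 4.71%, and of 11 in eosinophils 1 rose and 1 fell, against 2.16% and 0.702%. Nfkb2, an NF-kB subunit, rose from 1824 to 12684 in neutrophils and from 1316.5 to 9651.5 in mast cells, and was 11598.5 and 14609 in sDCs. Stat6, the factor through which IL-4 and IL-13 induce Ccl17 and Ccl22, was not called in any cell type and lay between 2778 and 6436.5. With IL-10 plus LPS against LPS, Csf2, the gene of GM-CSF, fell from 89.5 to 14 in macrophages, from 97 to 6 in mast cells and from 16 to 3.5 in neutrophils. In neutrophils Il13ra1 and Csf2rb rose. As a check of the treatments, 4 of 4 LPS response genes held (Tnf, Il12b, Nos2 and Ifit1) rose in each cell type but eosinophils, where Tnf, Il12b and Ifit1 rose. Of 4 IL-10 response genes looked up, only Sbno2 was held. With IL-10 alone it rose in mast cells (log2 change 1.40) and was not called in macrophages (0.98), neutrophils (0.79) or sDCs (0.21). With IL-10 plus LPS against LPS it rose in neutrophils (1.23) and mast cells (1.57) and was not called in macrophages (0.83) or sDCs (0.75).

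Markers of other cell types moved with the chemokines in places. In neutrophils the 5 macrophage markers held summed to 7593.5 untreated, 8400.5 with IL-10, 18173.5 with LPS and 10175 with IL-10 plus LPS. The 5 did not move together. Emr1 went from 4346 to 14667.5 with LPS and stood at 5157.5 with both, and Marco was listed at 0 untreated, at 241 with LPS and at 14.5 with both. Mrc1 went the other way, from 454.5 to 124.5 with LPS and 613 with both, Cd68 stood at 2788, 3140 and 4387.5, and Vsig4 was at 5 or lower. Of the 4 that reached the minimum, 2 rose and 1 fell with LPS, and 1 rose and 2 fell with IL-10 plus LPS against LPS. The 7 neutrophil markers went from 309239 to 68132.5 with LPS. The 3 activated dendritic cell markers summed to 793.5 untreated, 1887.5 with LPS and 1312 with both, with Ccl19 at 0 in all 4 neutrophil groups. Most of this rise was Ccr7, from 228.5 to 1235.5, the 1 called of the 2 that reached the minimum. The 7 dendritic cell markers summed to 4575 untreated, 6663 with LPS and 3398.5 with both. Of these, 2 rose and 1 fell with LPS, against 8.71% and 7.83% of all genes. The part of these markers in the rises of Ccl22, Ccl17, Cx3cl1 and Cxcl16 in neutrophils was not tested. In sDCs the 7 dendritic cell markers summed to 21328.5 untreated, 9615 with LPS and 7646.5 with IL-10 plus LPS, beside the fall of Cxcl16. Most of the untreated sum was Dpp4, which went from 15226 to 3679 with LPS, while Bst2 went from 910.5 to 4736. Of the 7 markers, 4 fell and 1 rose with LPS, against 11.5% and 8.98% of all genes. None was called with IL-10 plus LPS against LPS. The part of these markers in the fall of Cxcl16 was not tested either. In macrophages the same 7 summed to between 12709 and 19125. The 3 activated dendritic cell markers were far higher in sDCs than in neutrophils, also without treatment. They summed there to 197440 untreated, 157872 with LPS and 112075 with IL-10 plus LPS, and most of each sum was Ccr7. The part of this activated state in the untreated sDC levels of Ccl22, Cx3cl1 and Cxcl16 was not tested. In these bulk samples, fewer cells of a type and less RNA per cell cannot be told apart. Markers of macrophages, neutrophils, mast cells and eosinophils each summed highest in their own cell type, and eosinophil markers came to between 27197.5 and 30791 in the neutrophil groups. T and B lymphocyte markers summed to between 2528 and 4037.5 in the neutrophil groups and between 2377 and 3841.5 in the sDC groups. Erythroid markers summed to between 3527 and 6267.5 in neutrophils. The study names lymphocytes as typical contaminants of these neutrophils. The part of such cells in the neutrophil level of Ccl17 was not tested.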

How the data were processed

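RNA was extracted with TRIzol and sequenced on an Illumina HiSeq 2000. The authors aligned reads to Ensembl mm9 transcripts with RSEM 1.2.1 and Bowtie 0.12.9, corrected for GC content with EDASeq and deposited 1 table with 18 columns. Each deposited column is a score, the normalised count averaged over 2 libraries, and all 18 columns reach the same highest value, 185338. All 36 libraries enter only as these means. The 1 T cell sample was not used here. Of 17015 complete lines, 22 without a gene name (0.129%) were left out, as was 1 broken line.

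Transcripts were summed by gene in Python 3.11.15 with pandas 2.3.3. Log2 changes used a pseudocount of 1. A gene was compared where either mean reached 10 and called at 2-fold. No test was made, because means carry no replicate spread; changes and motif searches were tested on simulated data. Genes were placed with GENCODE annotation of NCBIM37, and neighbours are genes within 250 kb. Named genes are the 4 members, the listed receptors, regulators, response genes and markers, the neighbours, and the 5 genes with the highest Pearson r. Some genes that these rules name are not reported here. The members and lists were chosen with earlier results of these data known. Alternatives were other pseudocounts, minimums, folds and scalings, the largest transcript, Spearman correlation and, chosen after seeing the data, leaving out a cell type.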

Additional observations from a re-analysis of the deposited data

Results flagged for a closer look

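There were 2 patterns in which a gene was called in opposite directions in different cell types under 1 treatment; neither difference was tested. With LPS, the log2 change of Cxcl16 was -1.29 in sDCs, against 3.71 in neutrophils, 3.05 in mast cells and 1.51 in eosinophils, where the levels were 12 and 36 and the call was lost with a minimum of 50. With IL-10 alone, the log2 change of Cx3cl1 was 1.42 in macrophages and -2.20 in mast cells, and the macrophage change rests on levels of 6.5 and 19.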

How the results depend on the processing

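No paired analysis was possible because each column is a mean over both libraries. For the same reason no replicate could be left out. Of the 52 log2 changes, none reversed under any alternative. Other pseudocounts, minimums and folds cannot change a sign, however, and the largest transcript differs from the sum for Cxcl16 only. Only the rescalings and, for Cxcl16, the largest transcript could have reversed a change. The number raised by LPS was 15 of 20 and ranged from 11 with a minimum of 50 to 17 at 1.5-fold. The number lowered by IL-10 plus LPS against LPS was 9 of 16 and ranged from 6 with a minimum of 50 to 13 at 1.5-fold, where 2 of the 4 added were Cxcl16. The number changed by IL-10 alone, 3 of 16, was 1 with a pseudocount of 10, 0 with a minimum of 50 and 5 with no minimum; all 3 changes involve levels under 50. The minimum of 50 ended 10 calls and the pseudocount of 10 ended 4, among them Ccl17 in macrophages, whose log2 change with LPS was then 0.76. Leaving out 1 cell type in turn, an alternative chosen after seeing the data, gave 11 to 13 of 16 raised by LPS, 6 to 8 of 12 lowered and 2 or 3 of 12 changed by IL-10 alone. Each call is made within its own cell type, so this only takes away the count of the cell type left out and cannot change a call. Over transcripts in place of genes, the share raised by LPS was 5.65% to 20.1% across cell types, against 2.16% to 12.6%. By Spearman correlation of levels, 3 of the 5 closest genes were kept for Ccl22, 4 for Cx3cl1, 2 for Ccl17 and 1 for Cxcl16, and with cell type means taken off 1, 2, 1 and 4. The depth behind each level is unknown here, and levels under 50, such as those of Ccl17 in macrophages and mast cells, decide most of the calls that were lost.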
